A study of Homo sapiens with 9 samples.

Results

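The interferon stimulated genes described here are a list of 39 genes whose RNA rises in most human cells after exposure to an interferon. Each symbol was matched to an Ensembl identifier of the deposited expression table, and 39 of 39 members matched 1 of its 57338 genes. The members were listed by symbol, and the list was chosen with earlier results of these data known. Whether plasmid-transfected HEK293T cells expressed or changed these genes was asked in 9 RNA-seq libraries, 3 per condition.

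HEK293T is a human embryonic kidney line that carries the SV40 large T antigen. By the labels and the methods of the study, all 3 conditions used cells of this line that were transfected with a pcDNA3.1 plasmid and sorted alive 3 days later for high EGFP. The empty vector (Emp) coded for EGFP alone, and the other 2 plasmids coded for EGFP fused to human protamine 1 (hPRM1) or human protamine 2 (hPRM2), the small basic proteins that pack sperm DNA. By that description an EGFP plasmid, transfection and sorting were common to every group, which for the libraries labelled hPRM1 was not borne out by their values, as given next. No untransfected library was analysed here. A response to transfection itself could not be measured, and only the level of each gene after transfection can be given.

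PRM2 was at 71224, 60050 and 36130 RPKM (reads scaled to gene length and to the reads of the library) in hPRM2 replicates 1, 2 and 3 and at 0 in the 6 other libraries. PRM1 was at 0 in all 9 libraries, so the label of the hPRM1 libraries was not borne out by its targeted gene, and they are called the libraries labelled hPRM1 throughout. Of 12 marker genes of HEK293T cells, 10 were at 0 in all 3 libraries labelled hPRM1. Of these, 8, among them LIN28B and PAX2, were above 0 in the other libraries and 2 (TFAP2B and CRABP1) were at 0 in all 9, and the summed level of the list was 0.234 to 0.777 RPKM there, against 198 to 281 RPKM in the empty vector and 126 to 165 RPKM in hPRM2. The summed level of 9 red cell markers was 2060240 to 2266410 RPKM in the libraries labelled hPRM1, against at most 18.2 RPKM elsewhere. Neutrophil and monocyte markers (11 genes) summed to 6343 to 7413 RPKM there and at most 20.7 RPKM elsewhere. Lymphocyte markers (10 genes) summed to 855 to 1098 RPKM there, and platelet markers (5 genes) to 313 to 547 RPKM, against at most 0.406 RPKM and 13.5 RPKM elsewhere. The libraries labelled hPRM1 also carry library numbers apart from the run of numbers of the other 6, so library series and label cannot be told apart. Reads on genes, estimated from the spacing of low RPKM values, were 7930000 to 10790000 per library in the empty vector, 1270000 to 2650000 in hPRM2 and 4210000 to 5860000 in the libraries labelled hPRM1.

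Type I and type III interferons are secreted when sensors such as RIG-I, MDA5 or the cGAS-STING pathway detect foreign or misplaced nucleic acid, and plasmid DNA in the cytosol can be such a trigger. Their receptors activate the kinases JAK1 and TYK2, which lead to the factor ISGF3, of which STAT2 and IRF9 are subunits. ISGF3 binds the interferon stimulated response element (ISRE) in the promoters of its target genes, while interferon gamma acts through the gamma activated site (GAS). HEK293T cells are widely used because they take up plasmids readily, and they are known to sense cytosolic DNA poorly.

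The promoters of the members were searched for the ISRE core GAAANNGAAA and the GAS core TTCNNNGAA, where N is any base, on both strands of the 250 bases before the gene start (RefSeq, GRCh38.p14). Of the 39 members, 30 had an entry, and the others (IFIT2, IFITM2, MX2, OAS2, OASL, TRIM22, GBP2, USP18 and IRF7) are only named. The ISRE core was found in 18 of 30 (60%), against 1061 of 35116 promoters of all genes (3.02%), and the GAS core in 9 of 30 (30%), against 2306 of 35116 (6.57%). Both cores were found in 5 members and neither in 8. The windows below are shown because their genes cover the range of levels found in the HEK293T cells, from HERC5 and IFI6, among the highest, over IFITM3, BST2 and ISG15 to GBP1 and IFI44, which were at 0. Each is written 5′ to 3′ along the strand of the gene, with the ISRE core matches nearest the start in capitals and the flanking bases in lower case.

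HERC5, chr4:88457020-88457079, plus strand: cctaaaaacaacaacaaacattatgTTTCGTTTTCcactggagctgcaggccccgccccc

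IFI6, chr1:27672251-27672310, minus strand: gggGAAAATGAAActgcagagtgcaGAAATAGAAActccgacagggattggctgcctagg

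IFITM3, chr11:320861-320920, minus strand: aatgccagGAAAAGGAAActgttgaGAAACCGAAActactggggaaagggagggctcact

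BST2, chr19:17405720-17405785, minus strand: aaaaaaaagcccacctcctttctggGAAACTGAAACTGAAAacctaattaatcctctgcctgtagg

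ISG15, chr1:1013359-1013424, plus strand: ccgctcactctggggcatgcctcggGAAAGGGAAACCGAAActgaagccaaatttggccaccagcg

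GBP1, chr1:89065301-89065360, minus strand: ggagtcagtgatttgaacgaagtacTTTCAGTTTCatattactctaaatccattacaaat

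IFI44, chr1:78649746-78649788, plus strand: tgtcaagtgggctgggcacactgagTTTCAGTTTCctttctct

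The core lies in the forward direction in IFI6, IFITM3, BST2 and ISG15 and on the other strand, as its reverse complement, in HERC5, GBP1 and IFI44. In BST2 and ISG15 the capitals hold 2 overlapping matches. A mean level of at least 1 RPKM in the empty vector was seen in 13 of the 18 members with an ISRE core and in 5 of the 12 without one in this window. The match describes the letters only and says nothing of whether a factor was bound.

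**Figure D1:**
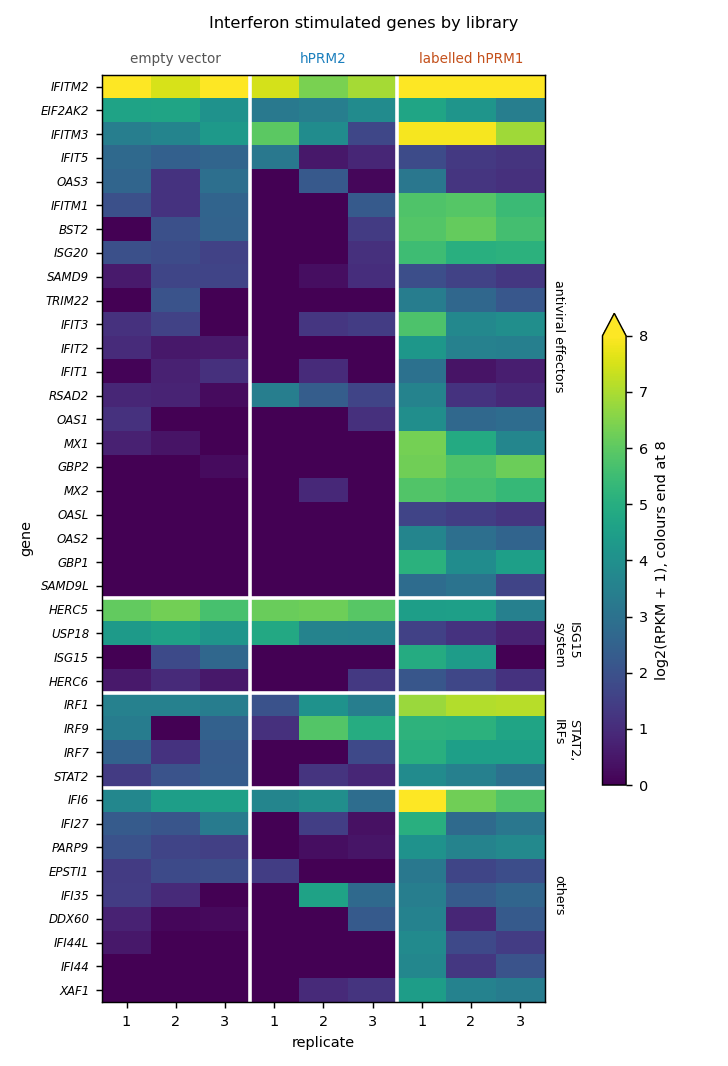
Level of each of the 39 interferon stimulated genes (rows, ordered by role and by empty vector mean) in each of the 9 libraries (columns), as log2(RPKM + 1) with colours ending at 8. The libraries labelled hPRM1 had 35 to 39 members at 1 RPKM or more, while the empty vector had 20 or 21 and hPRM2 11 to 20.

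In the empty vector, 22 of the 39 members had a mean of at least 1 RPKM, and 16 reached 1 RPKM in all 3 libraries. The members at 1 RPKM or more were 20, 21 and 21 of 39 in replicates 1 to 3 (51.3% to 53.8%), while 56.7% to 59.0% of 19659 protein-coding genes reached that level. The median member stood at 1.18, 1.26 and 1.87 RPKM, and the median protein-coding gene at 2.77, 2.98 and 2.41 RPKM. Most members were thus present at low levels, and only IFITM2, EIF2AK2, HERC5, USP18 and IFI6 were at 10 RPKM or more in all 3 libraries. In hPRM2, members at 1 RPKM or more were 11, 14 and 20 of 39, and 40.7%, 49.3% and 53.9% of protein-coding genes reached that level in the same libraries. Values between genes depend on the gene length used, and 37 of 39 members have more than 1 annotated transcript, so the order of genes by RPKM is approximate. Because the kit reads transcripts from the 3′ end, division by length lowers the values of long genes.

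A value of 0 does not show absence. For a gene of 1 kilobase, the limit that 0 reads allow (3 reads) was 0.278 to 0.378 RPKM in the empty vector, 1.13 to 2.36 RPKM in hPRM2 and 0.512 to 0.712 RPKM in the libraries labelled hPRM1, and it falls in proportion to length. These limits cover counting error only.

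The ISG15 system held some of the highest values. ISG15, a ubiquitin-like protein that is conjugated to other proteins, was at 0, 2.51 and 5.43 RPKM in empty vector replicates 1 to 3 and at 0 in all 3 hPRM2 libraries. HERC5, the ligase that attaches ISG15, was at 67.0, 76.8 and 50.4 RPKM in the empty vector and at 71.5, 74.6 and 60.2 RPKM in hPRM2. USP18, the protease that removes ISG15 and also restrains the interferon receptor, was at 19.7, 23.0 and 16.9 RPKM in the empty vector and at 27.3, 10.9 and 10.6 RPKM in hPRM2. The ligase and the protease were thus high in every HEK293T library while their substrate was low or at 0. HERC6, a relative of HERC5, was at 0.420 to 0.928 RPKM in the empty vector and at 0, 0 and 1.49 RPKM in hPRM2. For USP18 the values correspond to about 294, 369 and 342 reads in the empty vector and 136, 26 and 32 in hPRM2, rounded to whole reads.

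Among the antiviral effectors, the IFITM proteins block the fusion of viruses with cell membranes. IFITM2 was the highest member, at 307, 180.2 and 399.6 RPKM in the empty vector and at 179, 82.0 and 121 RPKM in hPRM2, with every hPRM2 library below every empty vector library. IFITM3 was at 9.72, 11.2 and 18.6 RPKM in the empty vector and at 62.8, 13.8 and 2.23 RPKM in hPRM2, where the 3 libraries lay on both sides of the empty vector. IFITM1 was at 2.91, 1.25 and 5.03 RPKM in the empty vector and at 0, 0 and 3.84 RPKM in hPRM2. The 3 genes are related and share sequence. Of all 50-base stretches in the last 500 bases of their transcripts, 66.3% (IFITM1), 39.2% (IFITM2) and 21.5% (IFITM3) also occur in another gene. The annotated exons of IFITM1 and IFITM2 also overlap on 1 strand. Reads may therefore have been split between the 3 genes.

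EIF2AK2 codes for PKR, the kinase that halts translation on double-stranded RNA. It was at 23.7, 24.3 and 16.0 RPKM in the empty vector and at 8.46, 9.60 and 13.4 RPKM in hPRM2, and the groups did not overlap. IFIT5, one of the IFIT proteins that bind foreign RNA ends, was at 5.6, 4.47 and 5.10 RPKM in the empty vector and at 8.21, 0.417 and 0.826 RPKM in hPRM2. Its values correspond to about 167, 144 and 207 reads in the empty vector and to 82, 2 and 5 reads in hPRM2, so that replicate 1 of hPRM2 stood far from the other 2. IFIT3 was at 1.2, 1.96 and 0 RPKM and at 0, 1.42 and 1.69 RPKM in the same order, and IFIT1 and IFIT2 had means of 0.615 and 0.631 RPKM in the empty vector.

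The enzymes OAS1, OAS2 and OAS3 make the 2′-5′ oligoadenylates that activate RNase L, and OASL is related to them. Of these genes, OAS3 alone had a mean over 1 RPKM. OAS3 was at 5.07, 1.27 and 6.66 RPKM in the empty vector and at 0, 3.75 and 0.0961 RPKM in hPRM2. OAS1 was above 0 in 1 of 3 libraries of each group, and OAS2 and OASL were at 0 in all 6. BST2 (tetherin, which holds budding virus at the cell surface) was at 0, 2.89 and 4.82 RPKM in the empty vector and at 0, 0 and 1.62 RPKM in hPRM2. ISG20, an RNA exonuclease, was at 2.91, 2.56 and 1.96 RPKM in the empty vector and at 0, 0 and 1.16 RPKM in hPRM2. SAMD9 was at 0.485, 2.16 and 2.14 RPKM in the empty vector and at 0, 0.242 and 1.05 RPKM in hPRM2. TRIM22 was at 3.17 RPKM in 1 empty vector library and at 0 in the other 5 HEK293T libraries.

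Several genes commonly used to report an interferon response were among the lowest. MX1, a GTPase that traps viral nucleocapsids, was at 0.656, 0.338 and 0 RPKM in the empty vector and at 0 in hPRM2. IFIT2, MX1, MX2, OAS2, OASL, GBP1, GBP2, SAMD9L, IFI44 and IFI44L, 10 of 39, were below 1 RPKM in all 6 empty vector and hPRM2 libraries. OAS2, OASL, GBP1, SAMD9L and IFI44 were at 0 in all 6, 7 members were at 0 in all 3 empty vector libraries and 11 in all 3 hPRM2 libraries.

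The regulators STAT2 and IRF1, IRF7 and IRF9 carry the signal to the promoters. IRF1 was at 10.5, 10.5 and 9.55 RPKM in the empty vector, the narrowest spread of the 4, and at 3.06, 16.0 and 9.66 RPKM in hPRM2. STAT2 was at 1.62, 3.12 and 4.04 RPKM in the empty vector and at 0, 1.30 and 0.821 RPKM in hPRM2. IRF7, which amplifies interferon production, was at 4.74, 1.26 and 3.91 RPKM in the empty vector and at 0, 0 and 2.38 RPKM in hPRM2. IRF9 varied most, with 9.37, 0 and 4.64 RPKM in the empty vector and 1.17, 57.2 and 30.2 RPKM in hPRM2. Its exons overlap those of the gene AL136295.5 on the same strand over 1838 bases. Of the 50-base stretches in the last 500 bases of its transcripts, 46.0% occur in other genes, so the value of IRF9 is uncertain.

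Of the remaining members, IFI6, a mitochondrial and endoplasmic reticulum protein that limits flavivirus replication, was at 12.2, 21.2 and 22.6 RPKM in the empty vector and at 11.5, 14.6 and 6.31 RPKM in hPRM2. IFI27 was at 3.96, 3.31 and 9.11 RPKM in the empty vector and at 0, 1.78 and 0.284 RPKM in hPRM2. PARP9 was at 3.06, 2.11 and 1.87 RPKM in the empty vector and at 0, 0.241 and 0.382 RPKM in hPRM2. For IFI27 and PARP9 every hPRM2 library was below every empty vector library, whereas the groups overlapped for IFI6. EPSTI1 was at 1.63, 2.49 and 2.62 RPKM in the empty vector and at 1.71, 0 and 0 RPKM in hPRM2. IFI35 was at 1.67, 0.953 and 0 RPKM in the empty vector and at 0, 23.6 and 5.70 RPKM in hPRM2. DDX60 had a mean of 0.320 RPKM in the empty vector, and XAF1 was at 0 there and at 0, 0.931 and 1.29 RPKM in hPRM2.

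**Figure D2:**
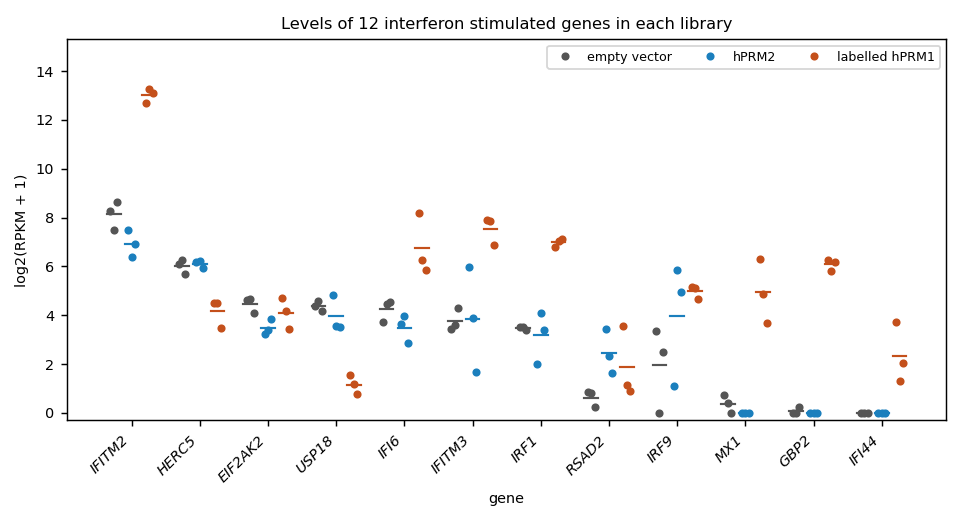
Level of 12 members as log2(RPKM + 1) in each library, with 1 point per library and a bar at the mean of the 3 libraries on this log scale. HERC5 overlapped between empty vector and hPRM2, RSAD2 was higher in every hPRM2 library, and MX1, GBP2 and IFI44 were at or near 0 in both.

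The comparison of hPRM2 with the empty vector asked whether the members changed with the protamine. None of the members tested was called, in either direction. Genes at 1 RPKM or more in at least 3 of the 6 libraries were tested with limma on log2(RPKM + 1), and genes changed by 2-fold or more with a Benjamini-Hochberg adjusted p up to 0.05 were called. Of the 39 members, 22 were tested and 17 were not (IFIT1, IFIT2, MX1, MX2, OAS1, OAS2, OASL, TRIM22, GBP1, GBP2, SAMD9L, ISG15, HERC6, IFI44, IFI44L, XAF1 and DDX60). The calls were 0 of 22, against 2.74% of all 13126 genes tested in either direction. The per-gene unequal-variance test called 0 of all 13126 genes and so says nothing of the members. By limma, an unadjusted p under 0.05 was found for 6 of 22 members and 3351 of 13126 genes. With no filter on low values, 34 members were tested and 0 called. The log2 fold change was negative for 16 and positive for 6 members, with a median of -0.999 over the 22 and of -0.72 over all genes tested. With no filter the medians were -0.54 and -0.41, after rescaling by the median of ratios they were -0.61 and -0.26, and by quantiles -0.15 and -0.16. The genes as a whole were thus lower too, and by quantiles the members were no lower than the genes. The hPRM2 libraries also held fewer reads, as given above, and the part of depth in these medians was not tested. For a single gene in bulk libraries, fewer expressing cells and less of its RNA per cell cannot be told apart.

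Of the effectors, RSAD2 (viperin, an enzyme that makes a chain-terminating nucleotide against viral polymerases) was the only member with every hPRM2 library above every empty vector library, a pattern seen in 6.01% of all genes tested. It is named after its values were seen. It was at 0.810, 0.751 and 0.170 RPKM in the empty vector and at 9.80, 4.08 and 2.09 RPKM in hPRM2, which correspond to about 21, 21 and 6 reads and to 85, 17 and 11 reads. It was tested only because the hPRM2 libraries passed 1 RPKM. Its log2 fold change was 1.84 ± 0.61 (SE, 95% interval 0.41 to 3.27, limma adjusted p = 0.130), and over 17 fits under other settings and with libraries left out it ranged from 0.82 to 2.92 with adjusted p from 0.0739 to 0.417. The rise of RSAD2 was therefore not called under any setting tried.

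Every hPRM2 library lay below every empty vector library for 7 of 39 members, or 6 of the 22 tested, where 29.9% of all genes tested showed that pattern. These were IFIT2, IFITM2, EIF2AK2, ISG20, STAT2, IFI27 and PARP9. PARP9, a partner of the ubiquitin ligase DTX3L, had the smallest adjusted p of the members, with a log2 fold change of -1.47 ± 0.37 (SE, limma adjusted p = 0.0802), and its exons overlap those of DTX3L on the opposite strand. PARP9 passed the filter only through the empty vector libraries, so its difference carries no weight of its own. IFITM2 had a log2 fold change of -1.21 (95% interval -2.23 to -0.18, limma adjusted p = 0.154). EIF2AK2 was at -0.96 (95% interval -2.06 to 0.14, limma adjusted p = 0.245). IFI27 was at -1.97 (95% interval -3.45 to -0.50, limma adjusted p = 0.122), and its 3 hPRM2 values were under the limit that 0 reads allow for a gene of 1 kilobase. None of these differences passed the adjusted threshold.

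HERC5 gave the narrowest interval, with a log2 fold change of 0.10 (95% interval -0.70 to 0.90, limma adjusted p = 0.861), so that a 2-fold change in either direction was outside it. USP18 was at -0.40 (95% interval -1.64 to 0.85, limma adjusted p = 0.643) and IFI6 at -0.76 (95% interval -2.02 to 0.51, limma adjusted p = 0.391). For these, and for IRF9 at 2.02 (95% interval -1.33 to 5.38, limma adjusted p = 0.388), the interval holds changes of 2-fold or more.

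**Figure D3:**
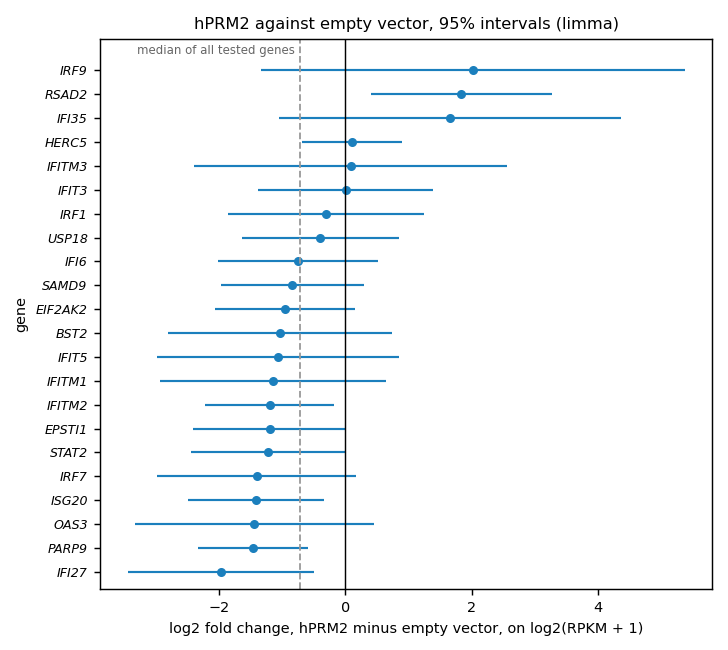
Log2 fold change of the 22 tested members in hPRM2 relative to the empty vector, with 95% intervals from limma on log2(RPKM + 1). The dashed line marks the median of all genes tested (-0.72), and 16 of 22 points lie below 0.

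The 3 hPRM2 libraries differed from each other, and replicate 1 decided the calls. Without it, 4 members were called: IFIT5 (-1.91), IFITM2 (-1.48) and EPSTI1 (-1.69) lower and IFI35 (2.89) higher, with limma adjusted p from 0.0370 to 0.0496. These were 4 of 21 members tested, where 17.6% of 12825 genes tested were called (2257, against 359 with all libraries), so the members' share was near that of all genes. IFIT5 and EPSTI1 passed the filter of this fit only through the empty vector libraries, so their calls there carry no weight of their own. In a fit of all 9 libraries PARP9 alone of 22 members was called (-1.47, limma adjusted p = 0.0365), against 16.2% of 13126 genes. As given above, PARP9 passed the filter only through the empty vector libraries.

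The other genes of the interferon pathway were taken from a list of 57 (21 ligands, 6 receptors, 8 genes of the JAK-STAT step, 13 sensors, 9 adaptors and kinases). All 21 ligand genes, IFNB1 and 13 IFNA genes among them, were at 0 in the empty vector and in hPRM2. The receptors for type I interferon were present, with IFNAR1 at 19.1, 17.2 and 21.9 RPKM and IFNAR2 at 13.7, 10 and 7.33 RPKM in the empty vector. In hPRM2 they were at 13.9, 44.2 and 9.19 RPKM and at 63.9, 3.5 and 0.771 RPKM. Both receptor chains were thus above 0 in all 6 libraries, with a wide spread in hPRM2. The interferon gamma receptor chains IFNGR1 and IFNGR2 were at 7.80 to 14.8 RPKM and 43.9 to 60.2 RPKM in the empty vector, and at 1.66 to 7.78 RPKM and 3.16 to 19.2 RPKM in hPRM2. IL10RB and IFNLR1, the receptor pair for interferon lambda, were at 43.3 to 51.1 RPKM and 0.734 to 1.93 RPKM in the empty vector, and at 33.9 to 60.6 RPKM and 0.289 to 7.41 RPKM in hPRM2.

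Most sensors of nucleic acid were low in the HEK293T libraries, except for MAVS, DHX58 and, in hPRM2, TLR3. MAVS, the adaptor of RIG-I and MDA5, which the list holds with the sensors, was at 10.7, 9.66 and 7.97 RPKM in the empty vector and at 4.72, 4.15 and 6.25 RPKM in hPRM2. DHX58, a relative of RIG-I, was at 4.27, 2.46 and 4.88 RPKM in the empty vector and at 0, 8.86 and 7.01 RPKM in hPRM2. TLR3, a sensor of double-stranded RNA, was at 0.109, 0.408 and 0 RPKM in the empty vector and at 0.420, 7.88 and 5.31 RPKM in hPRM2, with every hPRM2 library higher, but it did not pass the filter and was not tested. CGAS, the enzyme that senses cytosolic DNA, was at 0, 0.359 and 0 RPKM in the empty vector and at 0, 0.804 and 0 RPKM in hPRM2. STING1, its partner, was at 0.214, 0.0793 and 0 RPKM in the empty vector and at 0 in hPRM2. RIGI was at 2.96, 0.244 and 0.290 RPKM in the empty vector and at 0 in hPRM2, and IFIH1 (MDA5) was at 0 in all 9 libraries. Of 13 sensors, 7 were at 0 in all empty vector libraries. Of the 57 genes, 20 were tested in hPRM2 against the empty vector, 0 rose and 1 fell, where 2.74% of all genes tested were called in either direction. The gene that fell was IKBKE, a kinase of the interferon-inducing branch, at 2.15, 3.03 and 1.90 RPKM in the empty vector and listed at 0 in the 3 hPRM2 libraries (limma adjusted p = 0.0475). IKBKE passed the filter only through the empty vector libraries and had to differ, so its call carries no weight of its own. The limit that 0 reads allow for a gene of 1 kilobase in those libraries (1.13 to 2.36 RPKM) is close to its empty vector level, and it was not called after either rescaling, with a log2 fold change of -1.74 as deposited, -1.51 by the median of ratios (limma adjusted p = 0.0622) and -0.67 by quantiles (limma adjusted p = 0.383).

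In the libraries labelled hPRM1, most members were far higher than in the empty vector. Of the 39, 36 were tested, 27 were called higher and 3 lower (IFIT5, HERC5 and USP18), 6 were not called (OAS3, EIF2AK2, SAMD9, ISG15, IFI27 and EPSTI1), and IFIT1, RSAD2 and DDX60 were not tested. Of all 13588 genes tested, 12.9% were called higher and 62.5% lower. These are the libraries in which the HEK293T markers were at or near 0 and the blood cell markers high, as given above, and the part of those cells in the following values was not tested. Of the 36 members tested, 12 passed the filter only through the libraries labelled hPRM1. These were IFIT2, MX1, MX2, OAS2, OASL, GBP1, GBP2, SAMD9L, HERC6, IFI44, IFI44L and XAF1. They had to differ, so their calls carry no weight of their own. Among the other 24 tested, 15 were higher. With no filter on low values all 39 were tested, again with 27 higher and 3 lower, and the median log2 fold change was 2.35 over the 39 and -0.77 over 22088 genes. Of the 39 members, 7 were at 0 in the empty vector, and for them the size of that fold change depends on the pseudocount and none is given here. Every library labelled hPRM1 was above every empty vector library for 29 of 39 members (27 of the 36 tested, against 14.5% of genes tested) and below for 3 (against 66.4%).

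Of the 22 effectors, 20 were tested and 16 were higher, where 12.9% of all genes tested were. The 16 include IFIT2, MX1, MX2, OAS2, OASL, GBP1, GBP2 and SAMD9L, which passed the filter only through these libraries. IFITM2 reached 6559, 9842 and 8756 RPKM, a log2 fold change of 4.87 ± 0.32 (SE, limma adjusted p = 1.95e-05). IFITM3 was at 237, 235 and 116 RPKM and IFITM1 at 54.0, 58.3 and 43.1 RPKM, with log2 fold changes of 3.77 and 3.80. BST2 was at 56.8, 67.6 and 47.8 RPKM (log2 fold change 4.35 ± 0.64, limma adjusted p = 0.000695). All 3 IFITM genes and BST2 thus lay above their highest level in the 6 other libraries.

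The MX and GBP GTPases, at or near 0 in the HEK293T libraries, were well above it here. MX1, MX2, GBP1 and GBP2 passed the filter only through these libraries, so their calls carry no weight. MX1 was at 78.7, 28.5 and 11.8 RPKM (log2 fold change 4.58 ± 0.65). MX2, at 0 in the empty vector, was at 55.5, 49.0 and 40.1 RPKM. GBP2, a GTPase strongly induced by interferon gamma, was at 76.6, 55.0 and 72.1 RPKM (log2 fold change 6.02 ± 0.22). The size of that fold change depends on the pseudocount, since its empty vector values were 0, 0 and 0.170 RPKM. GBP1, at 0 in the other 6 libraries, was at 33.3, 13.8 and 22.0 RPKM. MX1 differed widely between these 3 libraries, whereas MX2 and GBP2 varied little.

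Among the IFIT genes, IFIT2 was at 17.7, 10.5 and 9.92 RPKM (log2 fold change 3.04) and IFIT3 at 52.9, 12.2 and 14.5 RPKM (log2 fold change 3.57). OAS1 was at 14.5, 5.53 and 6.13 RPKM (log2 fold change 2.79), OAS2 at 11.5, 6.61 and 4.96 RPKM and OASL at 2.09, 1.73 and 1.33 RPKM. These 5 genes were all called higher, and OAS2 and OASL were at 0 in the other 6 libraries. OAS3, at 8.0, 1.33 and 1.14 RPKM, did not differ beyond its spread (log2 fold change -0.41, 95% interval -2.09 to 1.27, limma adjusted p = 0.607). ISG20 was at 44.7, 31.7 and 34.5 RPKM (log2 fold change 3.44). TRIM22 was at 9.55, 5.40 and 3.48 RPKM (log2 fold change 2.06, limma adjusted p = 0.0213), and its call was lost when any of empty vector replicates 1 and 3 or labelled hPRM1 replicates 1 and 2 was left out with the genes tested held fixed. SAMD9L, at 0 in the other 6 libraries, was at 6.14, 7.26 and 2.10 RPKM, while its neighbour SAMD9 was at 2.78, 1.97 and 1.44 RPKM (log2 fold change 0.30, 95% interval -0.59 to 1.19, not called).

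IFIT1 and RSAD2, not tested on this filter, were high in replicate 1 alone, IFIT1 at 7.0, 0.327 and 0.587 RPKM and RSAD2 at 11, 1.24 and 0.878 RPKM. DDX60 was at 10.8, 0.816 and 3.85 RPKM. Replicate 1 was the highest of the 3 libraries labelled hPRM1 for 33 of 39 members, and the share of all genes with that pattern was not counted. IFI6 shows the pattern in reads, with 289, 75.5 and 56.3 RPKM from about 1001, 188 and 174 reads (log2 fold change against the empty vector 2.51 ± 0.62, limma adjusted p = 0.00835). IFI44 was at 12.1, 1.45 and 3.10 RPKM and IFI44L at 13.2, 2.41 and 1.67 RPKM, both called higher, although the call of IFI44L was lost without empty vector replicate 2 or 3 with the genes tested held fixed. The median member stood at 17.7, 10.5 and 7.94 RPKM in replicates 1 to 3, and the median protein-coding gene at 0.516, 0.607 and 0.477 RPKM. The median member was thus highest in replicate 1, while the median protein-coding gene was not.

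In the ISG15 system the directions differed. ISG15 was at 29.5, 20.5 and 0 RPKM and was not called (log2 fold change 1.62, 95% interval -1.71 to 4.95, limma adjusted p = 0.314) unless replicate 3, the library at 0, was left out. USP18 was lower, at 1.91, 1.26 and 0.713 RPKM (log2 fold change -3.21 ± 0.27, limma adjusted p = 5.10e-05), and stayed lower after rescaling by the median of ratios (-1.49) and by quantiles (-1.66). HERC5 was at 21.4, 21.8 and 10.3 RPKM and was called lower on the deposited scale (-1.85), but not after either rescaling, where its log2 fold change was 0.26 and -0.17. HERC6, at 3.41, 2.27 and 1.28 RPKM, was called higher (1.01) but passed the filter only through the libraries labelled hPRM1. Its call was lost in the same 4 left-out fits as that of TRIM22. IFIT5, the third member called lower (2.54, 1.51 and 1.32 RPKM, log2 fold change -1.14), turned to 0.48 and 0.34 after the 2 rescalings, neither called. USP18 was thus the only member called lower on all 3 scales.

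All 4 regulators were called higher on the deposited scale, where 12.9% of all genes tested were, though IRF9 and STAT2 not under every setting. IRF1 was at 109, 133 and 139 RPKM (log2 fold change 3.51 ± 0.18, limma adjusted p = 8.77e-06). IRF7 was at 31.8, 21.7 and 22.0 RPKM (2.69), IRF9 at 35.1, 34.2 and 24.4 RPKM (3.04) and STAT2 at 13.5, 10.1 and 6.92 RPKM (1.52). The call of IRF9 was lost with a pseudocount of 0.1, in the fit of all 9 libraries and in the per-gene unequal-variance test. That of STAT2 was lost with a pseudocount of 5. IRF1 was steady between these libraries as it was in the empty vector. For IRF1 the exons of 2 genes on the opposite strand overlap 2185 bases, and whether reads were counted by strand is not given in the sources used here. Of the 9 remaining members, 8 were tested and 6 were higher: IFI6, IFI44 and IFI44L above, with XAF1 (21.1, 10.8 and 9.17 RPKM, with 2535 bases of its exons shared with a gene on the opposite strand), PARP9 (16.0, 11.1 and 12.5 RPKM, log2 fold change 2.09) and IFI35 (9.73, 3.87 and 5.07 RPKM, log2 fold change 1.98). Of these, IFI44, IFI44L and XAF1 passed the filter only through the libraries labelled hPRM1. IFI27 (31.8, 5.8 and 7.94 RPKM) and EPSTI1 (8.18, 2.16 and 2.70 RPKM) were not called on the deposited scale, at 1.07 (95% interval -0.49 to 2.63) and 0.56 (95% interval -0.49 to 1.61).

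The scaling moved the background. The median log2 fold change of all genes tested was -1.72 on the deposited scale, 0.07 with the median of ratios and -0.30 with quantile normalization, and that of the members tested 2.51, 3.58 and 3.67, which is a description only, since 12 of them passed the filter through their level in the libraries labelled hPRM1. The genes called higher and lower were 1750 and 8491 on the deposited scale, 4205 and 3714 with the median of ratios and 3475 and 4388 with quantile normalization. The members called higher and lower were 27 and 3, 33 and 1, and 31 and 1 in the same order, where 31.5% and 27.8% of all genes were called by the median of ratios and 25.6% and 32.3% by quantiles. EIF2AK2, at 24.8, 17.0 and 9.81 RPKM, changed sign between them, from -0.36 on the deposited scale, not called, to 1.70 and 1.30, both called. SAMD9 (1.61 and 1.58), IFI27 (2.90 and 2.62) and EPSTI1 (2.11 and 1.97) were likewise called higher after both rescalings.

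**Figure D4:**
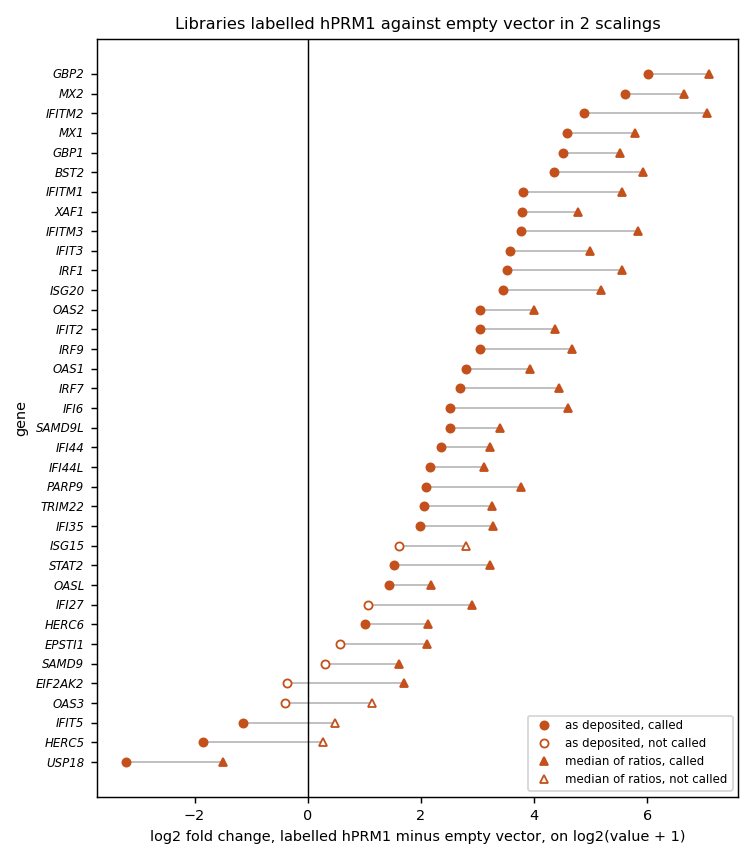
Log2 fold change of the 36 tested members in the libraries labelled hPRM1 relative to the empty vector, as deposited (circles) and after rescaling by the median of ratios (triangles), filled where called. The pseudocount of 1 sets the size for the 7 members at 0 in the empty vector, and IFIT5, HERC5, EIF2AK2 and OAS3 lie on both sides of 0.

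Among the pathway genes of the same libraries, several sensors at or near 0 in the HEK293T libraries were above it. Of 57 genes, 31 were tested, 13 were higher and 3 were lower (IFNAR1, TBK1 and TRAF3), where 12.9% of all genes tested were higher and 62.5% lower. The counts depend on the scale, with 27 of 32 higher and 0 lower by the median of ratios and 26 of 31 and 0 by quantiles. Of the 13 called higher on the deposited scale, 7 (CGAS, STING1, TLR8, ZBP1, AIM2, IFI16 and IRF5) passed the filter only through the libraries labelled hPRM1 and had to differ, and of the other 24 tested 6 were higher. IFI16, a nuclear DNA sensor, was at 36.8, 64.6 and 31.6 RPKM, TLR8, a sensor of single-stranded RNA, at 8.17, 10.2 and 8.64 RPKM, ZBP1 at 15.0, 17.2 and 8.28 RPKM and IRF5 at 5.51, 5.90 and 5.58 RPKM, all called higher and all at 0 in the 6 other libraries. MYD88, the adaptor of most Toll-like receptors, was at 18.2, 20.6 and 20.1 RPKM (log2 fold change 3.62). CGAS was at 1.69, 1.38 and 1.23 RPKM (1.13) and STING1 at 4.51, 4.75 and 3.24 RPKM (2.23), while RIGI was at 4.22, 2.78 and 1.25 RPKM and was called only after rescaling (limma adjusted p = 0.00719 by the median of ratios and 0.00828 by quantiles). Of 21 ligands, 20 were at 0, and IFNL1 was at 0.562, 1.57 and 0 RPKM. IFNAR1 was at 4.20, 6.21 and 4.39 RPKM (log2 fold change -1.79), but at 0.18 after the median of ratios, and none of the 3 genes called lower was called after either rescaling. The other receptor chains were at 12.9 to 18.5 RPKM (IFNAR2), 3.49 to 7.22 RPKM (IFNGR1), 36.2 to 50.5 RPKM (IFNGR2), 37.0 to 51.3 RPKM (IL10RB) and 0.198 to 0.401 RPKM (IFNLR1), and none of the 4 tested was called on the deposited scale. By the median of ratios and by quantiles, IFNAR2 (2.61 and 2.24), IFNGR2 (1.87 and 1.44) and IL10RB (2.05 and 1.62) were called higher, and IFNGR1 was not. Against hPRM2, 31 of the 57 were tested, with 16 higher and 1 lower, where 16.0% of all 11756 genes tested were higher and 37.0% lower. Of the 31, 12 passed the filter only through the libraries labelled hPRM1 and had to differ, and 11 of them were higher. Of the other 19 tested, 5 were higher. The gene called lower was TRAF3 (-1.74, limma adjusted p = 0.0497), which was not called after either rescaling.

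The libraries labelled hPRM1 were also set against hPRM2, a comparison that shares these 3 libraries with the one above. Of 37 members tested, 26 were higher and 2 lower, HERC5 (-1.96) and USP18 (-2.81), against 16.0% and 37.0% of 11756 genes tested, and 12 of the 26 passed the filter only through the libraries labelled hPRM1. IFITM2 had the log2 fold change 6.08 ± 0.34 (SE, limma adjusted p = 0.000100) here. After the median of ratios 29 members were higher and none lower (32.1% and 16.6% of all genes), with HERC5 at -0.07 and USP18 at -1.31 (limma adjusted p = 0.0524). By quantiles 28 were higher and 1 lower (24.6% and 26.4% of all genes), USP18 (-2.16, limma adjusted p = 0.0111), with HERC5 at -0.51 and not called. RSAD2, whose levels in hPRM2 and in the libraries labelled hPRM1 overlapped, was at -0.59 (95% interval -2.71 to 1.54, limma adjusted p = 0.611). IFI35 and IRF9 likewise did not differ beyond their spread, at 0.32 (95% interval -2.52 to 3.15) and 1.01 (95% interval -1.94 to 3.97). For 24 of 39 members every library labelled hPRM1 was above all 6 empty vector and hPRM2 libraries. The share of all genes with that pattern was not counted, so this count is a description only. The 24 include members, OAS2 and GBP1 among them, that passed the filter only through the libraries labelled hPRM1.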

How the data were processed

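RNA of 9 libraries was measured with a QuantSeq 3′ kit. The authors processed the reads with nf-core/rnaseq (FastQC, Cutadapt, STAR and Salmon, versions not given in the sources used here; hg38 per the submitters' processing notes), removed mitochondrial genes and deposited RPKM values, each count divided by the reads of its library and by gene length in kilobases. The table holds 57338 genes, 33786 at 0 in all 9 libraries, and 98.6% of identifiers had a symbol. There were 0 unused columns.

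Groups came from the sample titles. Nothing says that replicates were separate cultures, so p-values measure the spread between these libraries only. The members, gene lists, tests and alternatives were chosen with earlier results of these data known. All members are accounted for, and values are printed for those with an empty vector mean of at least 1 RPKM or called in any comparison, others by ranges. Pathway genes named are those called in hPRM2, at most 6 with the largest change in the libraries labelled hPRM1, the receptors, CGAS, STING1, RIGI and IFIH1, and 1 gene that the rule names is not reported here. RSAD2, DDX60, IFIT1, MAVS, DHX58, TLR3, AIM2 and the pathway genes called lower were added after their values were seen.

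Genes reaching 1 RPKM in 3 or more of the 6 compared libraries were tested in R 4.3.3 with limma 3.58.1 (lmFit, eBayes with trend and robust) on log2(RPKM + 1), which understates changes of low genes, with Benjamini-Hochberg adjustment over all genes tested. Each comparison was fitted separately and with no block for the replicate number. The script was tested on simulated data. Reads on genes were estimated from RPKM steps of 13863 genes with a single GENCODE 29 transcript between 600 and 20000 bases, with 250 bases subtracted, and estimates up to 60 reads were whole (within 0.1) for 4 members only, whose larger estimates, not held to this, were rounded, so no test of counts was run. Alternatives were other pseudocounts, filters and scalings, a joint fit of the 9 libraries, a block for the replicate number, the per-gene unequal-variance test on log2(RPKM + 1) and leaving out each library. Figures were drawn with matplotlib 3.10.9, and the remaining steps used Python 3.11.15, SciPy 1.17.1, numpy 2.4.6 and pandas 2.3.3. Same-numbered libraries of different groups did not deviate together over 14901 genes (r from -0.08 to 0.08), so the numbers were not taken as pairs.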

Additional observations from a re-analysis of the deposited data

How the results depend on the processing

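For hPRM2 against the empty vector, 0 members were called, 1 in a fit of all 9 libraries and 0 to 4 when 1 library was left out, the 4 without hPRM2 replicate 1 (also 4 with the genes tested held fixed, an alternative added after seeing the data). For the libraries labelled hPRM1 against the empty vector, 30 members were called, 17 with a minimum of 10 RPKM (18 tested) and 17 to 31 with 1 library left out. For the libraries labelled hPRM1 against hPRM2, 28 were called, 16 with a minimum of 10 RPKM (18 tested), 16 with the per-gene unequal-variance test and 14 to 28 with 1 library left out. The counts of 14 to 19 came from leaving out a library labelled hPRM1, by which 12 called members per fit of the comparison with the empty vector no longer reached the filter. With the genes tested held fixed, the counts against the empty vector were 27 to 31. The direction turned for IFIT5 (0.48 by the median of ratios, 0.34 by quantiles) and for HERC5 (0.26 by the median of ratios) against the empty vector. Of all values of single called members recomputed, 542 kept direction and call against the empty vector and 36 lost the call, and 488 and 52 did so against hPRM2. With the replicate block the calls were 0, 30 and 28 members. The same 30 genes were called against the empty vector, and against hPRM2 27 of 28 were shared (EPSTI1 gained, SAMD9 lost). Over all genes in hPRM2 against the empty vector, 359 were called, 57 with the replicate block, 2125 in a fit of all 9 libraries, 89 with no filter, 167 with a minimum of 10 RPKM, 0 with the per-gene test (2206 at an unadjusted p under 0.05) and 2257 without hPRM2 replicate 1 or 10 to 41 without any other library. Of these genes 179 were higher and 180 lower, against 223 and 82 by the median of ratios and 342 and 70 by quantile normalization. Depth limits the hPRM2 values too, since a gene of 1 kilobase could have up to 1.13 to 2.36 RPKM and be listed at 0.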
